A study of Mus musculus with 9 samples.

Results

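Serum amyloid A genes were followed in the livers of autoimmune-prone MRL +/+ female mice after repeated exposure to 2 reactive dichloroacetyl compounds. The 4 genes, Saa1, Saa2, Saa3 and Saa4, were found as all probe sets of the array annotated to these symbols, which gave 4 of 18193 genes measured and 6 of 45101 probe sets. The genes were chosen by their signal in DCAC and DCAA livers against corn oil livers, so these values below are a description and carry no test. The difference between the compounds played no part in the choice and was tested.

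The groups were 3 mice given dichloroacetyl chloride (DCAC), 3 given dichloroacetic anhydride (DCAA) and 3 given corn oil alone. Both compounds were injected intraperitoneally at 0.2 mmol/kg in 100 µl of corn oil over 6 weeks. Mice were killed at 11 weeks of age, 24 h past the final dose. Both carry the dichloroacetyl group; DCAC is an acyl chloride and DCAA an acid anhydride. Each mouse gave 1 liver and 1 Affymetrix array, and the controls are called untreated in part of the labels, while the study's design text gives them the oil.

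Serum amyloid A proteins are small apolipoproteins that travel on high density lipoprotein. In mice Saa1 and Saa2 are made by hepatocytes and are the classical acute phase forms, turned on by interleukin 1, interleukin 6 and tumour necrosis factor through NF-kB, C/EBP and STAT3 factors. Saa3 is induced in liver and also in macrophages and fat cells, and Saa4 is known as the constitutive form. Prolonged high levels of the acute phase forms can deposit as amyloid A fibrils.

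The genes lie side by side on chromosome 7 of GRCm38.p6, where RefSeq places Saa3 at chr7:46711998-46719615, Saa4 at chr7:46727992-46732603, Saa1 at chr7:46740497-46743181 and Saa2 at chr7:46751833-46754313. The cluster spans 42316 bases. Saa1 is read from the minus strand and Saa2 from the plus strand, with their starts 8853 bases apart and facing away from each other. The spans RefSeq gives for Saa1 and Saa3 reach further upstream than the transcript starts used here. The 250 bases before each transcript start are shown because the genes of this cluster behaved very differently in the same livers. Capitals mark each match to TTGCNNAA, a short form of the C/EBP motif, on either strand.
Saa1, chr7:46742981-46743230, minus strand: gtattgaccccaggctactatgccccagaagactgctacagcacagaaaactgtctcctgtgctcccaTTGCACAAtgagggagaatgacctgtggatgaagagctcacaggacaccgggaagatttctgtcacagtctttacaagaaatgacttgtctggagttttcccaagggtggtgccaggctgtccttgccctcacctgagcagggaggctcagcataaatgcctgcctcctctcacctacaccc
Saa2, chr7:46751583-46751832, plus strand: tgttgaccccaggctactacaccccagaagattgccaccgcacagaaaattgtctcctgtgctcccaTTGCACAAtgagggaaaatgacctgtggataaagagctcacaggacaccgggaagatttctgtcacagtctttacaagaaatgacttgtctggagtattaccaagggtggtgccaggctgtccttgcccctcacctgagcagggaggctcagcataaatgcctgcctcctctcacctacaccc
Saa3, chr7:46715677-46715926, minus strand: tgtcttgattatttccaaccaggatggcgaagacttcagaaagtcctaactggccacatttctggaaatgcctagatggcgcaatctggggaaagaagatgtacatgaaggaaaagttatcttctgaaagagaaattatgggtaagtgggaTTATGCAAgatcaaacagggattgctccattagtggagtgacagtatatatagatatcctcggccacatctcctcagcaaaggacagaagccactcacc
Saa4, chr7:46732604-46732853, minus strand: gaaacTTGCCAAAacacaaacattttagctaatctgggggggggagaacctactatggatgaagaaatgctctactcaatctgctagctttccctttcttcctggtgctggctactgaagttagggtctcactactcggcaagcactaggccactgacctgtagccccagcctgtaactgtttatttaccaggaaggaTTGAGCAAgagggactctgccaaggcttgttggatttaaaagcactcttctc

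The upstream sequences of Saa1 and Saa2 are near copies of each other, at 94.8% identity with 11 mismatches and 2 gap positions over 251 aligned columns. Counted from 1 at the 5′ end of the Saa1 run, with the Saa1 base first, the mismatches were A3G, T21C, G22A, C33T, T37C, A40C, C51T, G84A, G99A, T165A and C168A. None of them falls in the TTGCACAA match, which begins 182 bases before the start of Saa1 and 183 bases before that of Saa2. Saa3 and Saa4 shared between 42.8% and 48.2% of aligned columns with the other members and with each other, over gapped alignments of 269 to 290 columns. All 4 windows held a C/EBP match, and Saa4 held 2, whereas 10.8% of 32851 RefSeq promoter windows of 250 bases before to 50 after a start held at least 1. An NF-kB motif (GGGNN followed directly by TTTCC), a STAT3 motif (TTCNNNGAA) and a TATA box (TATAAA) had no match in any of the 4 windows, against 1.63%, 8.3% and 13.6% of all windows. A match is a stretch of letters and not a shown binding site. The genes with little and with large differences in signal, described next, all hold the C/EBP letters, and the part of the motif was not tested.

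**Figure D1:**
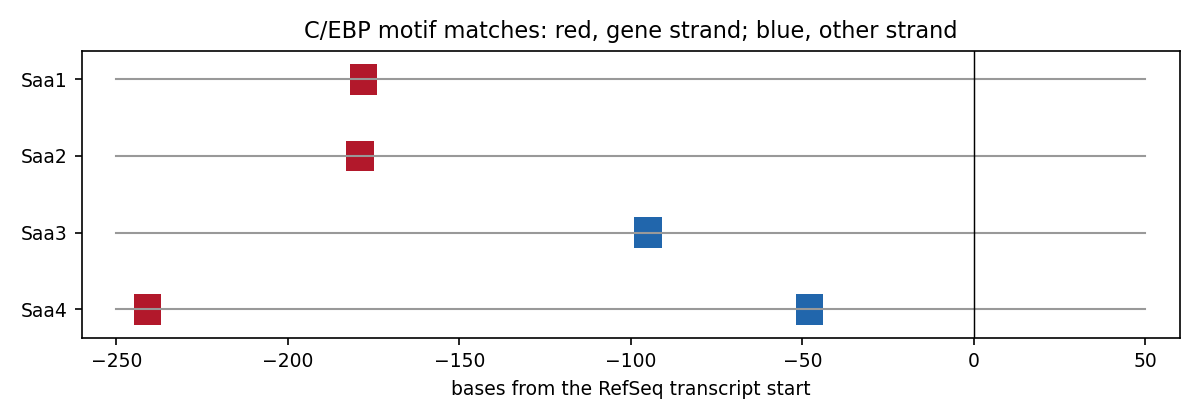
Position of C/EBP motif matches in the RefSeq window of each gene, in bases from the transcript start, with red for the gene strand and blue for the other strand. Saa1 and Saa2 hold their match at nearly the same place, 182 and 183 bases before the start, and Saa4 holds 2 matches.

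Because Saa1 and Saa2 are so alike, their probe sets cannot be taken as separate readings. Probe set 1419075_s_at is annotated to Saa1, but the transcript accession it was designed on belongs to Saa2 in RefSeq, and the suffix _s_at marks probes shared between similar transcripts. The Saa2 probe set 1449326_x_at was designed on the same accession, and the suffix _x_at marks probes that may bind other transcripts. RefSeq also lists each of the 2 symbols as a synonym of the other gene. The Saa1 probe set 1450788_at, without such a suffix, was designed on a Saa1 transcript. Saa3 has 1450826_a_at, and Saa4 has 1419318_at and 1419319_at, each designed on its own gene's transcript.

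The array labelled control2 went against its tissue label and is shown apart. Its summed signal of 14 hepatocyte markers was 37971, against 479324 to 658607 on the other 8 arrays, and that of 12 kidney markers was 195603, against 1378 to 2014. Its Spearman correlation with each other array was 0.757 to 0.822, and the other 8 correlated at 0.859 to 0.928 among themselves. Corn oil values below are therefore corn oil 1 and corn oil 3 (labelled control1 and control3), 2 mice, and the values with all 9 arrays are given beside them. The 3′/5′ signal ratio of pyruvate carboxylase, which grows as RNA or labelling quality drops, was 2.85 and 3.99 on DCAC 1 and 2, 12.8 on DCAC 3, 6.43 to 10.9 on the DCAA arrays and 3.32 and 3.93 on corn oil 1 and 3. Signals are in array units after the authors scaled each array to the same mean. Precision is limited by the small number of mice and arrays. In whole liver, fewer cells of a type and less RNA per cell cannot be told apart.

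Saa1 and Saa2 signal was more than 10 times higher in DCAC and in DCAA livers than in corn oil livers by the fitted means of all 3 of their probe sets. The Saa1 probe set 1450788_at read 42017, 50202 and 50819 on DCAC 1, 2 and 3, and 25645, 54814 and 57300 on DCAA 1, 2 and 3, against 3226 and 4531 on corn oil 1 and 3. Every treated array stood above both corn oil arrays, and DCAA 1 was the lowest treated array. Its fitted log2 difference was 3.64 (SE 0.29) for DCAC and 3.50 (SE 0.29) for DCAA, which is 12.4-fold and 11.3-fold.

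The shared probe set 1419075_s_at read 46752, 56348 and 65821 on DCAC 1, 2 and 3, and 19481, 59707 and 68791 on DCAA 1, 2 and 3, against 2954 and 3699 on corn oil 1 and 3. The same order of arrays was seen within DCAA, with DCAA 1 far below DCAA 2 and 3. The fitted difference was 4.08 (SE 0.40) for DCAC and 3.70 (SE 0.40) for DCAA, or 16.9-fold and 13.0-fold.

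The Saa2 probe set read 28330, 42795 and 42782 on DCAC 1, 2 and 3, and 7524, 44147 and 44319 on DCAA 1, 2 and 3, against 1557 and 1541 on corn oil 1 and 3. The highest DCAA array was 5.89 times the lowest, the highest DCAC array 1.51 times the lowest, and the corn oil arrays differed by 1.01 times. Treated and corn oil arrays did not overlap. The fitted difference was 4.59 (SE 0.57) for DCAC and 3.98 (SE 0.57) for DCAA, or 24.1-fold and 15.8-fold. Without DCAA 1 the DCAA difference was 4.84, or 28.6-fold. Within DCAA, array 1 had the lowest 3′/5′ ratio, 6.43, and its hepatocyte marker sum, 658607, was the highest of the 9 arrays; the part of either was not tested.

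The highest signal of any probe set on an array lay between 51280 and 84269 on these 8 arrays. The file carries no saturation flags, and whether the treated Saa1 and Saa2 readings were held down by the top of the scanner's range was not tested.

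**Figure D2:**
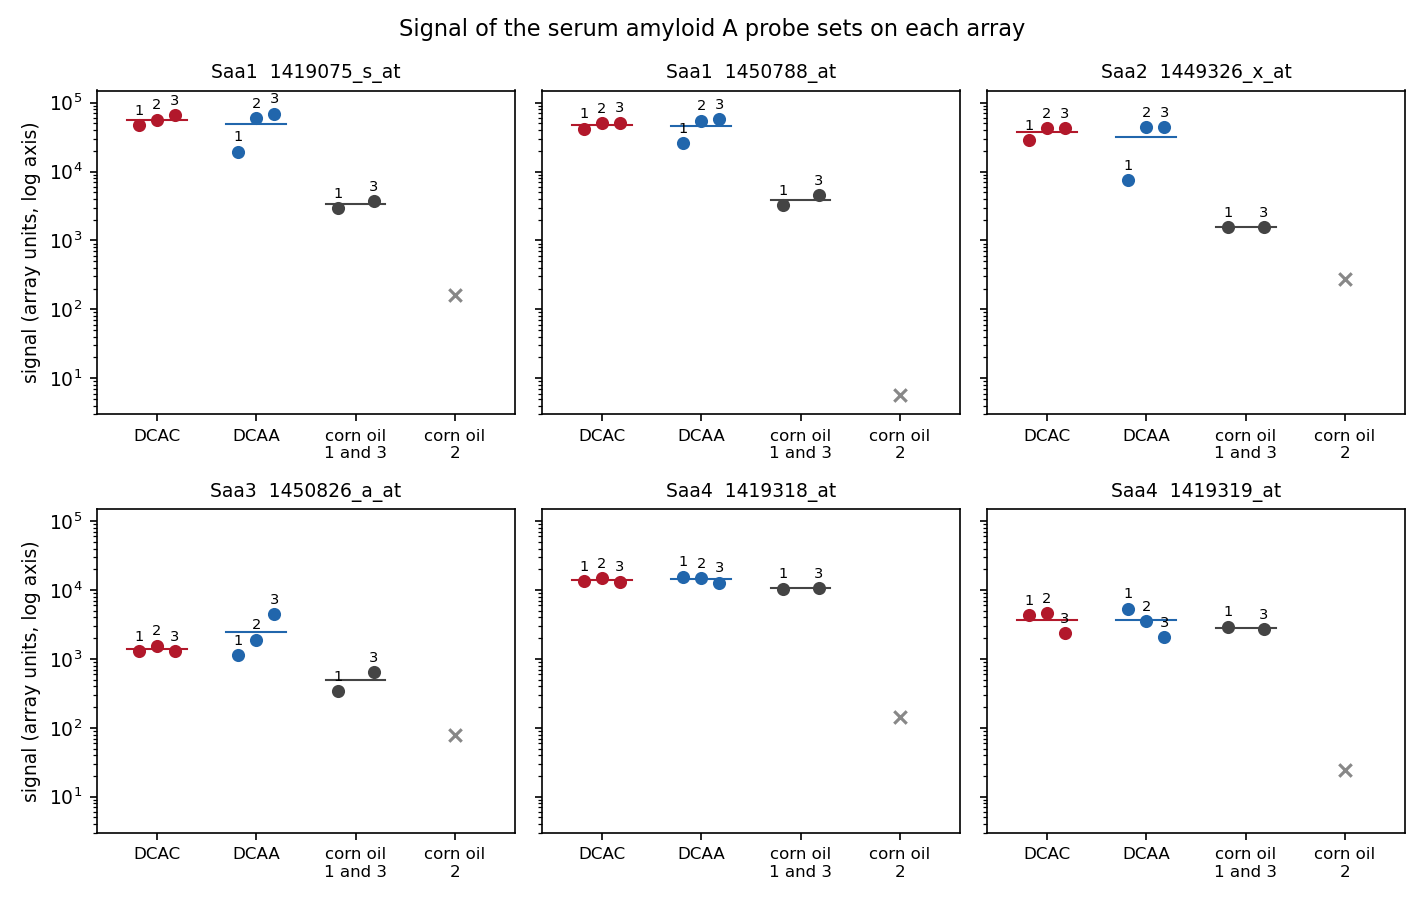
Signal of the 6 probe sets on each array, on a log axis; numbered points are mice, horizontal lines are group means, and the cross is the array labelled control2. For Saa1 and Saa2 the treated arrays stand above the corn oil arrays, at 7524 or more against 4531 or less, and DCAA 1 is the lowest treated point, whereas the Saa4 groups lie close together or overlap.

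Saa3 was also higher in treated livers, by a smaller factor and with another order of arrays. It read 1294, 1545 and 1301 on DCAC 1, 2 and 3, and 1133, 1899 and 4432 on DCAA 1, 2 and 3, against 343 and 639.7 on corn oil 1 and 3. All 6 treated arrays stood above both corn oil arrays, DCAA 3 stood far above the rest, and corn oil 1 was the lowest. The fitted difference was 1.55 (SE 0.43) for DCAC and 2.18 (SE 0.43) for DCAA, or 2.94-fold and 4.53-fold. It ran from 1.10 to 2.0 for DCAC and from 1.65 to 2.63 for DCAA when 1 array was left out.

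Since Saa3 is made by more than 1 cell type, marker sums of macrophages and adipocytes are set beside it. Those of neutrophils and intestinal epithelium are given as well. Macrophage and Kupffer cell markers, 10 of 10 measured, summed to 10087 to 16244 with DCAC and 13627 to 14623 with DCAA, against 9614 on corn oil 1 and 33317 on corn oil 3. Corn oil 3 thus held the highest macrophage sum of these 8 arrays and a Saa3 signal below every treated array. Neutrophil markers, 9 of 10 measured, summed to 2790 to 3076 with DCAC and 1970 to 4653 with DCAA. On corn oil 1 and 3 they summed to 1769 and 1471. The highest sum was on DCAA 3, where Saa3 was highest and the array's median signal, 214.1, was also the highest. The markers did not all move alike. Ngp read 380.9 to 411 with DCAC, between 366.4 on corn oil 3 and 486.6 on corn oil 1. Prtn3 read at least 711.4 with DCAC, against 222.2 and 45 on corn oil 1 and 3. Adipocyte markers, 4 of 6 measured, summed to 345 to 463.7 with DCAC and 499.5 to 835 with DCAA. The sums on corn oil 1 and 3 were 342 and 324, and the lowest DCAA sum was on DCAA 3. These signals were dim: Lep read at most 91.9 on these 8 arrays, whose medians were 156.9 to 214.1. Adipoq, Cidec and Retn were above the array median on some arrays only. Intestinal epithelial markers, which could mark gut tissue carried along, summed to 2356 to 3128 with DCAC and 2845 to 2866 with DCAA. On corn oil 1 and 3 they summed to 3010 and 3366. Most of each sum was Fabp2, at 1881 to 3000 on these 8 arrays, whereas Vil1, Muc2 and Tff3 each read at most 313. The part of these cells in the Saa3 signal was not tested.

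Saa4, the constitutive member, differed least. Probe set 1419318_at read 13354, 14769 and 13176 on DCAC 1, 2 and 3, and 15599, 14987 and 12844 on DCAA 1, 2 and 3, against 10515 and 10644 on corn oil 1 and 3. The treated arrays were all above both corn oil arrays, by a fitted log2 difference of 0.38 (SE 0.14) for DCAC and 0.45 (SE 0.14) for DCAA, or 1.30-fold and 1.36-fold. DCAA 1, the lowest treated array for Saa1, Saa2 and Saa3, was the highest for this probe set. The hepatocyte marker sum was 479324 to 626588 with DCAC and 613495 to 658607 with DCAA. On corn oil 1 and 3 it was 481161 and 499462. The DCAC range thus held both corn oil sums, with its lowest value on DCAC 1, and the DCAA sums were all higher. Whether Saa4 differed apart from the hepatocyte marker sum was not tested.

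The other Saa4 probe set did not separate the groups. Probe set 1419319_at read 4273, 4565 and 2368 on DCAC 1, 2 and 3, and 5389, 3540 and 2050 on DCAA 1, 2 and 3, against 2946 and 2717 on corn oil 1 and 3. Both treated groups overlapped the corn oil arrays, and the lowest arrays were DCAC 3 and DCAA 3, which had the highest 3′/5′ ratios, 12.8 and 10.9; the part of the ratio was not tested. Its difference was 0.34 (SE 0.35) for DCAC and 0.26 (SE 0.35) for DCAA, and the DCAA value was -0.071 without DCAA 1 and 1.16 with the ratio class as a block.

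On the array labelled control2 all 6 probe sets were below the other corn oil arrays. The Saa1 probe set 1450788_at read 5.80 there, the shared probe set 162.6, Saa2 277.2, Saa3 77.5, and Saa4 143.4 and 24.8. The readings of 1450788_at and 1419319_at lay below that array's 25th percentile, 59.8, and count as dim signals with no level of their own. The mean of corn oil 1 and 3 was 5.59 times as high for Saa2 and 6.34 times for Saa3, and at least 64.9 times as high as that percentile for 1450788_at. With this array among the controls, and signals below the percentile set to it, the log2 differences with DCAC were 5.63 and 5.52 for the Saa1 annotated probe sets, 5.42 for Saa2, 2.42 for Saa3, and 2.45 and 2.20 for Saa4. With DCAA they were 5.50, 5.15, 4.81, 3.04, 2.52 and 2.12 in that order. For DCAC by 1419318_at, Saa4 thus stood at 1.30-fold without control2 and 5.45-fold with it. Control2 had low hepatocyte and high kidney marker sums, so the larger value does not compare liver-like arrays alone.

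All 6 probe sets passed the filter on dim signals, being above the array median on 8 of 8 arrays. Because the contrasts with corn oil chose the genes, no limma call against corn oil is given for them. Over all probe sets 0.0326% of 24531 were called for DCAC and 0.0815% for DCAA. The comparisons share their corn oil arrays.

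The comparison of the chloride with the anhydride, made at the same molar dose and time, is the 1 pair of compounds here. No Saa probe set differed between them past the threshold of an adjusted p under 0.05, where 0.00408% of all 24531 probe sets were called. At an unadjusted p under 0.05 there were 0 of 6, beside 9.28% of all probe sets, and so small a count is no result about these genes. The DCAC and DCAA arrays overlapped for all 6 probe sets. The share of all probe sets that overlap was not computed, so this too is no result about these genes. The log2 difference of DCAC from DCAA was 0.61 for Saa2, with a 95% interval of -0.50 to 1.72 (limma adjusted p = 0.704). For the shared probe set it was 0.37, with an interval of -0.41 to 1.15, and for Saa1 by 1450788_at it was 0.14, with an interval of -0.43 to 0.70 (limma adjusted p = 0.742 and 0.879). The intervals hold differences of up to 3.28-fold higher with DCAC for Saa2, so they do not show that the compounds act alike.

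Saa3 stood on the other side, at -0.62 with an interval of -1.47 to 0.22 (limma adjusted p = 0.607). Saa4 was measured more tightly by 1419318_at, at -0.069 with an interval of -0.34 to 0.20, and less so by 1419319_at, at 0.08 with an interval of -0.60 to 0.76 (limma adjusted p = 0.872 and 0.946). DCAA 1 alone set the sign for Saa1 and Saa2. Without it the differences were -0.25 for Saa2, -0.20 for the shared probe set and -0.24 for 1450788_at, none passing. Without DCAA 3 the Saa3 difference was -0.093, and without DCAA 1 it was -1.08.

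**Figure D3:**
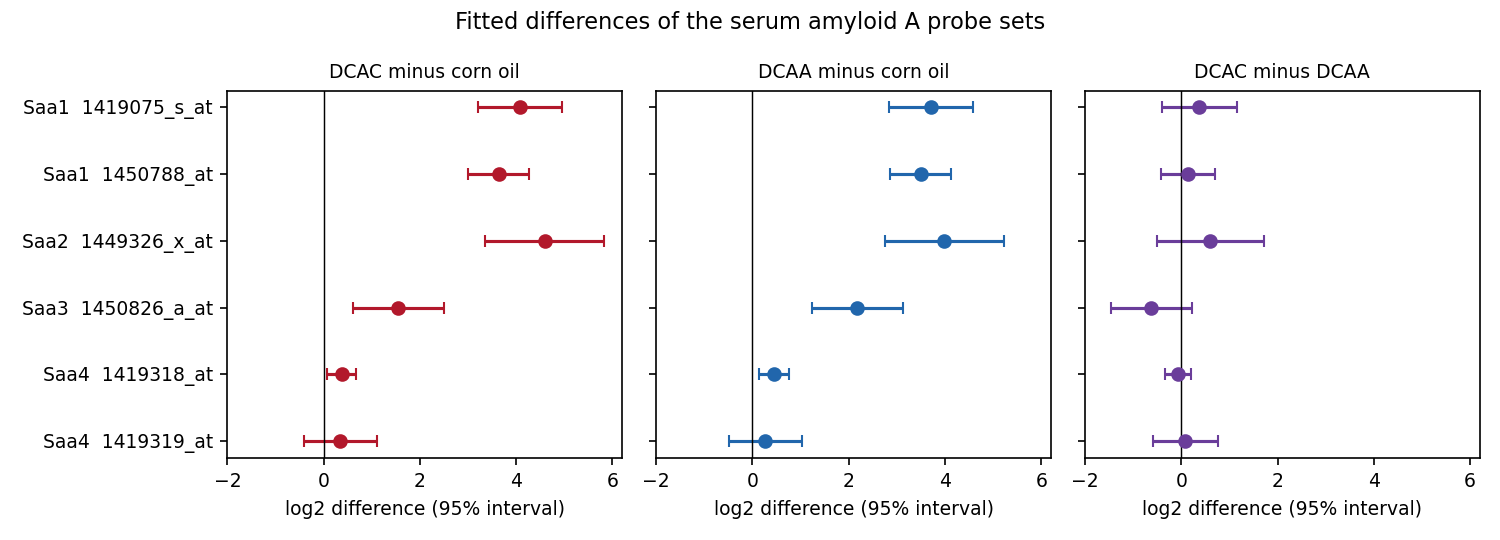
Fitted log2 differences with 95% intervals for the 6 probe sets, for DCAC minus corn oil, DCAA minus corn oil and DCAC minus DCAA, from 8 arrays. The contrasts with corn oil chose the genes, so their intervals describe the fit and are no test. The Saa1 and Saa2 differences from corn oil lie between 3.50 and 4.59, those of Saa4 between 0.26 and 0.45, and all 6 intervals of the difference between the compounds include 0.

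Among genes that are known to act upstream of serum amyloid A, none was called in liver at this time point. Of 17 cytokine and receptor genes, 13 passed the filter, and by limma neither compound had a called gene among them; at an unadjusted p under 0.05 there were 0 for DCAC and 3 for DCAA, beside 5.02% and 12.6% of all 24531 probe sets. Their median log2 difference was 0.017 for DCAC and -0.095 for DCAA, beside -0.0012 and 0.0001 over the 12293 genes that passed the filter. Il1b, which encodes interleukin 1 beta, stood at -0.57 for DCAC and -0.47 for DCAA (limma adjusted p = 0.968 and 0.597). Il6, the interleukin 6 gene, did not pass the filter, with signals of 8.80 to 68.4 with DCAC and 9.10 to 174 with DCAA, against 2.30 and 63.1 in corn oil livers. Its receptor gene Il6ra stood at -0.072 and 0.45 (limma adjusted p = 0.992 and 0.485).

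Of 22 signalling and transcription factor genes, 18 passed the filter and by limma none was called, while 0 for DCAC and 2 for DCAA had an unadjusted p under 0.05, no larger a share than the 5.02% and 12.6% of all probe sets. The medians were -0.18 and -0.015. Stat3 read 4990 to 10040 with DCAC and 8066 to 11552 with DCAA, against 6782 and 7441 in corn oil livers, so its groups overlapped for DCAC. Cebpb stood at -0.19 for DCAC and 0.069 for DCAA, Cebpd at -0.19 and -0.13, and Socs3, a feedback inhibitor of interleukin 6 signalling, at -0.39 and -0.16. None of these passed.

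Of 25 genes for partners on high density lipoprotein, receptors and clearance of serum amyloid A, 23 passed the filter, and limma called 0 for DCAC and 1 for DCAA, where 0.0326% and 0.0815% of all probe sets were called. At an unadjusted p under 0.05 there were 2 and 4, beside 5.02% and 12.6% of all probe sets. The medians were 0.18 for DCAC and 0.25 for DCAA. The called gene was Apcs, which encodes serum amyloid P, a pentraxin found in all amyloid deposits. It read 31210 to 37729 with DCAC and 36313 to 41769 with DCAA, against 18992 and 20456 in corn oil livers, and every treated array was above both of these. Its log2 difference was 0.84 for DCAC (limma adjusted p = 0.105) and 1.01 for DCAA (limma adjusted p = 0.0227). The DCAA call was lost under 10 of 17 alternatives, with adjusted p from 0.0171 to 0.530 over all 17, among them the fits without DCAA 2, DCAA 3, corn oil 1 or corn oil 3 (limma adjusted p = 0.0938, 0.109, 0.183 and 0.156). Apoa1, the main protein of high density lipoprotein, stood at 0.17 and 0.36 (limma adjusted p = 0.980 and 0.401).

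The genes with the profile most like each member were found by the root mean square difference between log2 signals, each centred on its mean over the 8 arrays. For Saa1, by the shared probe set, the nearest gene was Lcn2, the iron-siderophore binding protein lipocalin 2, at 0.19, where the size of the Saa1 profile itself was 1.77. The Saa2 probe set, designed on the same transcript as the shared one, lay at 0.34 from it, further than Lcn2. They are not separate readings of Saa1 and Saa2, and 1450788_at was not profiled in this way. After Lcn2 came Orm2, an orosomucoid, at 0.42, and the metallothionein gene Mt2 at 0.83. Hkdc1 followed at 0.86 and Prtn3, a neutrophil serine protease, at 0.88. Lcn2 and Orm2 shared the low value on DCAA 1, at -0.39 and -0.48 from their means, beside -0.36 for Saa1. For Saa2 the same 5 genes were nearest, at 0.44 for Lcn2 to 1.15 for Hkdc1.

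Saa3 and Saa4 had other neighbours. For Saa3, with a profile of size 1.01, they were Mesp1 at 0.28, Rab6b at 0.36, Mt2 at 0.46, Aqp6 at 0.46 and Cenpu at 0.48, and Saa1 lay further away, at 1.03. Of these, Mesp1, Rab6b, Aqp6 and Cenpu had their highest value on DCAA 3, as Saa3 did. Genes picked for likeness to Saa3 tend to share its peak, so this is no separate finding. DCAA 3 also had the highest array median, 214.1, and the part of that was not tested. For Saa4, whose profile was only 0.20 in size, they were Hc, which encodes complement component C5, at 0.067, Lbp, the lipopolysaccharide binding protein, at 0.071, Ascc1 at 0.073, Prdx4 at 0.079 and Fbp1, a gluconeogenic enzyme, at 0.086. These likenesses rest on 8 arrays that share 2 controls and describe these arrays only.

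**Figure D4:**
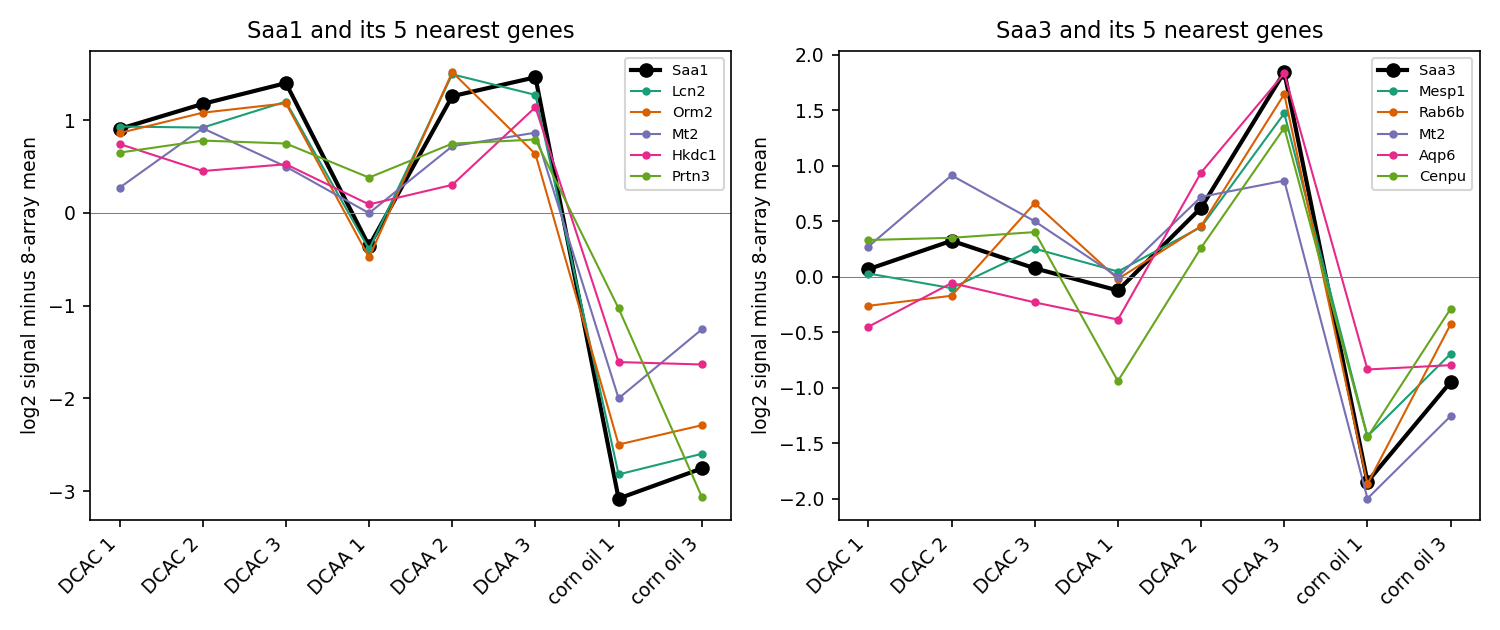
Log2 signal minus the 8-array mean for Saa1 (by the shared probe set 1419075_s_at) and its 5 nearest genes (left) and Saa3 and its 5 nearest genes (right), array by array. Lines join values of a gene and have no order in time. Saa1, Lcn2 and Orm2 lie between -0.36 and -0.48 on DCAA 1 while Saa3 has its highest value, 1.84, on DCAA 3.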

How the data were processed

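Total RNA of 9 livers was hybridised to 9 arrays, 1 per mouse. The authors deposited a linear signal intensity for each probe set, made in GCOS per the submitters' processing notes; its version is not given in the sources used here. Every array had a mean of 500.0 once 2% of probe sets was trimmed at each end. Of 36 array pairs 0 were identical.

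The manufacturer's 64 control probe sets were not tested. Of the rest, 34945 carry 1 symbol, 932 several and 9160 none. Each array's signals below its 25th percentile were set to that value before log2, and a probe set was kept (24531 in all) if it exceeded the array median on 3 or more arrays. The test was limma 3.58.1 in R 4.3.3, with all groups of the 8 arrays in 1 model, eBayes with trend, two-sided, and Benjamini-Hochberg adjustment over all kept probe sets at a threshold of 0.05. For a compound against corn oil the median 95% interval reached 1.55-fold either way. On simulated data for DCAC against corn oil with 200 changed probe sets, the share recovered was 90.5% for 4-fold changes (24455 tested) and 29.5% for 2-fold changes (24435 tested). These shares are averages over randomly drawn kept probe sets with independent normal noise. They may not hold for genes measured less tightly, such as Tnf, with an SE of 0.81 for DCAC against corn oil. Promoter sequences are RefSeq's (GRCm38.p6), with 4 of 4 genes matched, aligned with Biopython 1.88.

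Other genes are represented by their kept probe set of highest mean. Those named are 9 fixed genes, called list members (up to 4 per list) and the 5 nearest profiles of each member. Members, lists, motifs and tests were chosen with earlier results of these data known. Alternatives were no filter, no floor, quantile normalization, a common median, eBayes without trend, all 9 arrays, only the groups compared, a block for the replicate number or for the 3′/5′ ratio class (arrays divided at the largest gap), and each array left out in turn.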

Additional observations from a re-analysis of the deposited data

How the results depend on the processing

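Of 204 differences of a Saa probe set from corn oil recomputed under an alternative, 203 kept their direction. The exception was Saa4 by 1419319_at with DCAA, which ran from -0.071 to 0.63 when 1 array was left out. With the array labelled control2 added (all 9 arrays), the log2 differences with DCAC were 5.63 (1450788_at), 5.52 (1419075_s_at), 2.42 (Saa3), 2.45 (1419318_at) and 2.20 (1419319_at), and with DCAA 5.50, 5.15, 3.04, 2.52 and 2.12 in that order; Saa2 moved by less than 1 SD. With DCAA, Saa4 stood at 0.33 by 1419318_at with a common median and at 1.16 by 1419319_at when arrays were blocked by 3′/5′ ratio class. That block leaves DCAA to be set against corn oil through DCAC 3 alone.

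Of 102 differences between the compounds, 94 kept their direction and 0 had an adjusted p under 0.05. Leaving out 1 array, they ran from -0.25 to 1.03 for Saa2, from -0.20 to 0.71 for 1419075_s_at, from -0.24 to 0.34 for 1450788_at and from -0.28 to 0.41 for 1419319_at. Saa4 turned to 0.12 by 1419318_at with a common median, which shifted the median of all probe sets by 0.19 for this difference and by -0.12 for DCAA against corn oil, and to -0.52 by 1419319_at with the ratio class as a block.

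Counts of called probe sets were less stable than the members' values. For DCAC the count of 8 became 1 with no filter, 0 with all 9 arrays, 0 by eBayes without trend, and 2 with the ratio class as a block. It ran from 2 to 14 with 1 array left out, at 5 without DCAC 2, 2 without DCAC 3, 14 without DCAA 1, 3 without corn oil 1 and 5 without corn oil 3. For DCAA the count of 20 became 4 with no filter, 9 with a common median, 13 with only the groups compared, and 0 with all 9 arrays, without trend and with the ratio class as a block. It ran from 3 to 87 with 1 array left out, at 38 without DCAC 3, 87 without DCAA 1, 5 without DCAA 2, 3 without DCAA 3, 7 without corn oil 1 and 4 without corn oil 3. For the difference of the compounds the count of 1 became 0 with no filter, a common median, no trend and all 9 arrays, 2 with only the groups compared, 3 with the ratio class, 0 without any 1 of the DCAC arrays or DCAA 2, and 2 without corn oil 1 or 3. The cause of these shifts was not tested, except that no filter tests more probe sets, 45037. Without a corn oil array, the lone control is assumed to vary like the other groups. Counts of 0 go with 1131 to 5175 probe sets at an unadjusted p under 0.05.

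Apcs was run under the same alternatives after its values were seen. Its log2 difference stayed above 0 in all 17 with each compound. With DCAA its adjusted p was 0.195 with no filter, 0.173 with a common median, 0.227 without trend, 0.431 with all 9 arrays, 0.0608 with the replicate number as a block and 0.530 with the ratio class as a block; with DCAC it ran from 0.0752 to 0.804.

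With the replicate number as a block the counts were 7, 17 and 1. Saa2 then stood at 4.33 for DCAC and 3.72 for DCAA, and the block changed no call of a Saa probe set between the compounds. Deviations of arrays of the same number correlated at -0.041 to 0.028 and those of other numbers at -0.066 to 0.074, which gives no sign that numbers mark pairs of mice.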
